A study of Mus musculus with 45 samples.

Results

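Malat1, Neat1, Tug1 and Miat are long non-coding RNAs known from the nucleus, though their place in the cell was not measured here. They were chosen by name, and all 4 were found among the 23575 genes of the deposited gene table. Their levels were followed in mouse neural progenitor cells (NPC) that were being reprogrammed towards pluripotency. RNA was sequenced as long cDNA reads on Oxford Nanopore R9 or R10 flow cells. All cell lines go back to R1 embryonic stem cells (ESC), either directly or through the Oct4-GFP line (O4G), in which the Oct4 promoter drives a GFP reporter. The progenitors were made from O4G and were wild type (WT) or carried stable insertions, with the genotypes OKMS-Luciferase-AS or OKS-Luciferase-AS. OKMS and OKS are sets of reprogramming factors switched on by doxycycline and differ, by name, by Myc; the labels do not say what the luciferase element does.

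Progenitors in their own medium gave 4 R9 libraries (2 WT, 1 OKMS, 1 OKS) and 4 R10 libraries of the same make-up. The reprogramming medium held serum (FBS), the cytokine LIF and doxycycline (FBS-LIF-dox). In it, OKMS and OKS cells gave 1 library per system at days 2, 4, 6, 10, 14 and 20 in R9. R10 had 1 library per system for days 2, 6 and 18, plus OKMS libraries of days 4 and 10. Part of the cells were switched to 2i-LIF, which lacks serum and has inhibitors of MEK and GSK3, and these gave 3 R9 libraries (OKMS at days 14 and 20, OKS at day 20) and 2 R10 libraries (day 18). WT progenitors kept for 2 days in FBS-LIF-dox gave 1 R9 and 2 R10 libraries, and the stem cell lines, all grown in 2i-LIF, are represented by 2 libraries in R9 (O4G and R1) and 7 in R10 (2 O4G, 2 R1 clone 3 and 3 R1). No label says that libraries came from separate cultures, so p-values measure the spread between libraries, which may be technical. Each system stands on stably transfected cells whose number of clones is not given in the sources used here.

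The chemistries treat these RNAs differently, so groups were compared within a chemistry. Per the labels, R9 libraries were direct cDNA made from poly(A)-enriched RNA, and R10 libraries were PCR cDNA made from total RNA. Depth ran from 447990 to 1390424 reads in R9 (median 814717) and from 566599 to 4236442 in R10 (median 2342551). Within R10, reads on mitochondrial genes differed between sets of libraries, which were formed by label. Their share was 0.124 to 0.319% in 5 libraries (every WT progenitor library of either medium, and the R1 stem cell library whose label has no n number). It was 0.729 to 1.64% in 8 libraries (OKMS and OKS cells, progenitors included, before day 18). The 10 remaining libraries had 1.56 to 2.35%, a range that overlaps that of the 8. Summed over 8 stem cell markers, R10 stem cells held 11256 to 13878 CPM (reads scaled to a common library total) against 17.1 to 28.0 CPM in R10 progenitors. The 8 progenitor markers summed to 5005 to 6571 CPM in R10 progenitors and 5.97 to 44.1 CPM in stem cells. Sox1, one of those progenitor markers, was at 0 in every progenitor library of both chemistries, and Olig2 was at 0 in all 9 stem cell libraries.

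As background, Malat1 is among the most abundant nuclear RNAs of mammalian cells and gathers in nuclear speckles, where splicing factors are stored. Its mature 3′ end is not made by polyadenylation: RNase P cuts in front of a small tRNA-like RNA, and an A-rich stretch encoded in the genome folds back into a triple helix that protects the new end. Neat1, its neighbour, has a short polyadenylated isoform and a long isoform that ends in the Malat1 manner, and the long one builds paraspeckles, nuclear bodies with proteins such as Nono, Sfpq and Pspc1. Tug1 is a spliced, polyadenylated RNA known for binding Polycomb repressive complex 2 (PRC2) and for its role in the retina. Miat (Gomafu) is a spliced RNA of neurons and their precursors that is retained in the nucleus and binds splicing factors.

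The chemistries differ in poly(A) enrichment, so the 3′ ends are shown first. The part of these ends in the values was not tested. All sequences are from GENCODE M21 transcripts on GRCm38, read 5′ to 3′ on the minus strand, in lower case. Malat1 lies at chr19:5795690-5802672, 22035 bases downstream of Neat1 (chr19:5824708-5845478). In the Malat1 lines, capitals mark the 12 A bases of the genomic A run with the bases after it (chr19:5795958-5796077), and the AATAAA polyadenylation signal near the annotated 3′ end (chr19:5795690-5795749). In the Neat1 lines, capitals mark the signal before the short isoform's end (chr19:5842287-5842366) and the A-rich end of the long isoform (chr19:5824708-5824767). The long Neat1 end and the Malat1 A run both carry A bases followed by GCAAAA. Only the short Neat1 end and the annotated Malat1 end carry AATAAA.
Malat1 A run: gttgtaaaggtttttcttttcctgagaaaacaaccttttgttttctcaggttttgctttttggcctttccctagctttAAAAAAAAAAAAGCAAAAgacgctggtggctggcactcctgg
Malat1 annotated end: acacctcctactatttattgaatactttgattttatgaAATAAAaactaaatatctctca
Neat1 short end: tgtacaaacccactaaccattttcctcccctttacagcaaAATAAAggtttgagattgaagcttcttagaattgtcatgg
Neat1 long end: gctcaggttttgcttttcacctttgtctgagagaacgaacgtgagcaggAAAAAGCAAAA

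Tug1 lies at chr11:3639785-3649673, on the strand opposite the protein-coding gene Morc2a. The annotated Tug1 span overlaps the start of Morc2a, while in the deposited annotation the Tug1 models stop 212 bases short of those of Morc2a. A pair of its ends matters below: that of the transcript model that dominated in progenitors (chr11:3645093-3645172) and the annotated 3′ end (chr11:3639794-3639853), with AATAAA in capitals. The first window holds no AATAAA. Its model ends 20 bases before the window does.
Tug1 leading spliced model: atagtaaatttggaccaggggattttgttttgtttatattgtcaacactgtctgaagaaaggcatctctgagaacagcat
Tug1 annotated end: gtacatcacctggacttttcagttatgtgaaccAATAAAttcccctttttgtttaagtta

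The first comparison set stem cells against progenitors. Malat1 fell in R9 stem cells, and its R10 difference was just short of a call. In R10, progenitors had 7992 and 1882 CPM (WT), 3070 (OKMS) and 3635 (OKS), and the 7 stem cell libraries 1308 to 2437 CPM (median 2011). The lower WT progenitor library thus lay among the stem cells, and the groups overlapped. The difference of stem cells from progenitors was −0.99 ± 0.28 (log2 of CPM + 1, ± SE) with an adjusted p of 0.00588 in limma (Benjamini-Hochberg over all genes tested), just short of the size of 1 on the log2 scale that a call needed. It passed that size with edgeR (−1.08) and DESeq2 (−1.06) on recovered reads and without some single libraries (−1.30 without the WT progenitor library at 1882 CPM), and was −0.60 without the one at 7992 CPM.

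In R9, Malat1 had 740 and 1509 CPM in WT progenitors, 973 in OKMS and 865 in OKS ones, and 165 (O4G) and 272 CPM (R1) in stem cells. The groups did not overlap. Malat1 fell by 2.21 on the log2 scale (SE 0.33, limma adjusted p = 0.00213). The call was lost without the O4G stem cell library (−1.85, limma adjusted p = 0.0597).

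Neat1 went the other way in R10. It was found at 4.02 and 13.7 CPM in WT, 9.23 in OKMS and 20.4 in OKS progenitors, and at 26.3 to 87.1 CPM (median 60.1) in stem cells. Every stem cell library was above every progenitor library. Neat1 rose by 2.21 ± 0.38 on the log2 scale, with a limma adjusted p of 9.75e-05. In R9 it was near the limit of detection: 1 read in all 4 progenitor libraries together (1.35 CPM in OKMS), none in O4G stem cells and 11 reads, or 10.2 CPM, in R1 stem cells. The R9 difference of 1.44 ± 0.95 was not called (limma adjusted p = 0.269). It rested on the R1 library: without it the value was −0.31 (limma adjusted p = 0.737), and without O4G it was 3.18 (limma adjusted p = 0.0365).

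Tug1 was lower in stem cells. R10 progenitors had 145 and 169 CPM (WT), 177 (OKMS) and 165 (OKS). Stem cells had 31.0 to 42.1 CPM in the 6 libraries with an n number and 97.8 CPM in the R1 library without one. The groups did not overlap, and Tug1 fell by 1.99 on the log2 scale (SE 0.25, limma adjusted p = 3.67e-06). R9 values were 8.02 to 31.0 CPM in progenitors against 11.4 and 4.65 CPM in stem cells. They overlapped and the difference of −1.15 ± 0.59 was not called (limma adjusted p = 0.162), unless the WT progenitor library at 8.02 CPM was left out (−1.49, limma adjusted p = 0.0496).

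Miat had no read in any of the 8 progenitor libraries and 1 read in all 9 stem cell libraries, so it was not tested there. A count of 0 allows up to 0.283 CPM over the 4 R10 progenitor libraries as a pool and 0.963 CPM over the 4 R9 ones (3 reads of the total). These limits cover counting error only.

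So of the 3 members tested, 2 were called in R10 (Neat1 higher, Tug1 lower), where 45.8% of all 15414 genes tested were called (22.4% higher, 23.4% lower), and 1 in R9 (Malat1 lower), where 36.0% were (17.6% higher, 18.4% lower). A change between these cell types was thus common among all genes. The test of whether a difference itself differed between chemistries passed for none of the 3 (limma adjusted p of 0.131 for Malat1, 0.657 for Neat1 and 0.391 for Tug1), and for 3.79% of all 18340 genes. With only the unnumbered R1 library against the 4 R10 progenitor libraries, 0 members were called by limma, beside 29.1% of all genes tested, with Tug1 at −0.74 (adjusted p = 0.0220), Neat1 at 1.56 (0.263) and Malat1 at −1.22 (0.353). That library shares its low mitochondrial share with the WT progenitors, and the part of the library set in these values was not tested. In bulk samples, fewer cells of a type and less RNA per cell cannot be told apart.

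**Figure D1:**
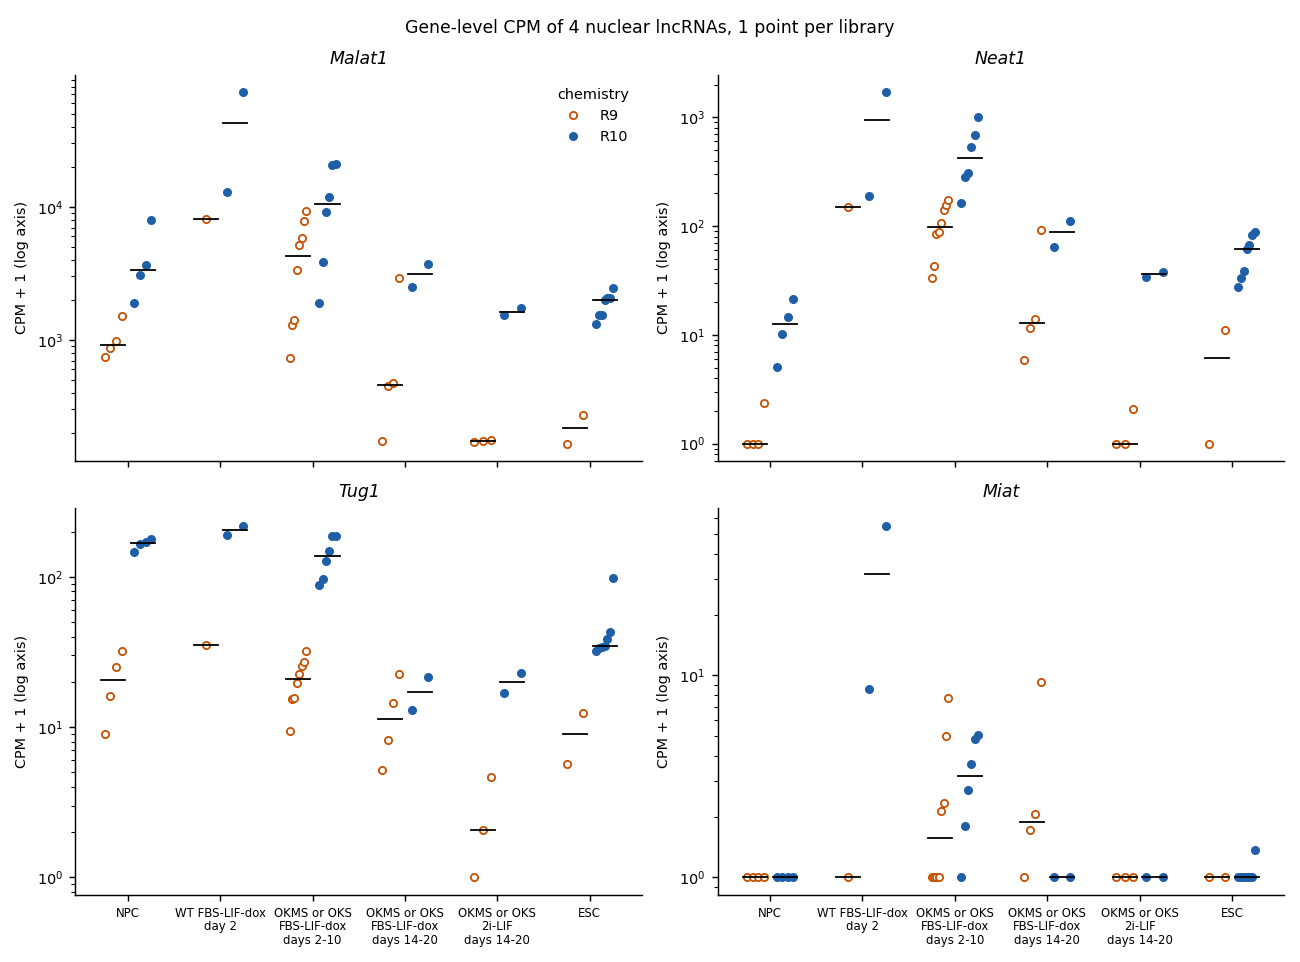
Gene-level CPM + 1 (log axis) of each member in every library, by cell state (open circles R9, filled circles R10, bars the median of a group). Malat1, Neat1 and Miat peaked in FBS-LIF-dox rather than in progenitors or stem cells, with the highest value of all 4 members in an R10 WT library of FBS-LIF-dox.

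The change of medium alone was examined in WT progenitors, which have no factors. After 2 days in FBS-LIF-dox, Malat1 made up 72937 CPM in replicate 2 and 13043 CPM in replicate 3 of R10, against 7992 and 1882 CPM in progenitor medium. Both serum libraries were above both progenitor libraries, but replicate 2 was 5.59 times replicate 3 in serum and 4.25 times replicate 3 in progenitor medium. With that spread the difference of 2.99 ± 1.06 did not pass (limma adjusted p = 0.0859). The 1 R9 serum library held 8133 CPM, above the 740 and 1509 CPM of R9 WT progenitors, with no test.

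Neat1 rose in the same libraries from 13.7 and 4.02 CPM to 1702 and 188 CPM. The groups did not overlap, and the difference of 6.05 ± 1.07 was called (limma adjusted p = 0.0130). The call did not survive the loss of any of the 4 libraries, with adjusted p between 0.0759 and 0.238 and differences between 4.46 and 7.63. Without either progenitor library or serum replicate 2, 0 of all genes were called by limma (3299 to 5485 at an unadjusted p under 0.05), and 7.05% without serum replicate 3, so 3 of these 4 losses were shared by every gene. The R9 serum library held 150 CPM of Neat1 and the R9 WT progenitors none.

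Miat appeared in serum. It met the filter of the test (1 CPM in 2 libraries) only through the serum libraries, so its difference could only be a rise. It was at 0 in both R10 WT progenitor libraries and at 54.0 CPM (138 reads) and 7.58 CPM (23 reads) in the serum libraries. Pooled over libraries, that was at least 63.7-fold higher, taking the 3 reads that a count of 0 allows over both progenitor libraries. Replicate 2 carried most of it: by the same floor replicate 3 alone was at least 16.8-fold and replicate 2 alone at least 119-fold higher. The fitted difference of 4.44 ± 0.88 was called (limma adjusted p = 0.0179) but not without either progenitor library (0.244 and 0.247) or without serum replicate 2 (3.10, 0.0524). The R9 serum library held no Miat read, which allows up to 4.25 CPM.

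Tug1 was nearly level, at 217 and 188 CPM in serum against 169 and 145 CPM. Its difference of 0.37 ± 0.21 did not pass (limma adjusted p = 0.243). In this comparison 2 of the 4 members were called, both higher, beside 26.8% of all genes tested (14.9% higher, 11.9% lower). Of these 2, Miat could only be called higher, as it had no read in the WT progenitors. Marker genes of astrocytes (4 genes) moved with these libraries: their summed level was 3057 CPM in serum replicate 2 and 1188 CPM in replicate 3, against 42.6 and 93.3 CPM in WT progenitors, and none of the 4 was at 0. Markers of mesenchymal cells (6 genes) summed to 934 to 1160 CPM in serum and 233 to 334 CPM in R10 progenitors. Their part in the member values was not tested.

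At day 2 the factors were compared with WT cells in the same medium, with the OKMS and OKS libraries pooled as a group. Malat1 was at 11785 CPM in OKMS and 20513 CPM in OKS cells. OKMS was below both WT serum libraries (13043 and 72937 CPM) and OKS between them. Neat1, at 307 and 536 CPM, lay between the WT values of 188 and 1702 CPM. Tug1 was at 147 and 187 CPM, and Miat at 0.790 and 4.10 CPM, below both WT libraries. None of the 4 was called, beside 0.740% of all genes tested. At an unadjusted p under 0.05 limma found 1 member, Miat, beside 2344 of all 15401 genes tested. Malat1 and Neat1 changed sign without WT serum replicate 2 (0.25 and 1.11 on the log2 scale, limma adjusted p of 0.987 and 0.832). Miat's difference of −2.85 had a limma adjusted p of 0.182, and it was called by edgeR (−3.51, 0.0464), by DESeq2 (−3.62, 0.0118) and by limma after median centring (−3.04, 0.0257). Astrocyte markers differed between these libraries too, at 164 (OKMS) and 633 CPM (OKS) against 3057 and 1188 CPM in WT cells, as did the mitochondrial share, at 1.51 and 1.64% against 0.319 and 0.165%. Their part was not tested.

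During reprogramming in FBS-LIF-dox, Neat1 climbed early and fell late. Day 0 was in progenitor medium, so for every member a difference from day 0 holds the change of medium as well as factors and time. These cannot be told apart in the time courses. WT cells without factors had 150 CPM of Neat1 at day 2 in R9, and 188 and 1702 CPM in R10. The R9 day 0 libraries held 1 read of Neat1 together. In R9, OKMS cells went from 1.35 CPM at day 0 to 105 at day 2, 41.7 at day 4, 87.3 at day 6, 32.4 at day 10, 10.6 at day 14 and 4.93 at day 20. OKS cells went from 0 to 82.9, 141, 154, 174, 91.8 and 12.9 CPM on the same days. Every later library was above both day 0 libraries. The difference from day 0 was 5.94 at day 2, 6.26 at day 6 (the largest), 4.42 at day 14 and 2.57 at day 20 (SE 0.81 each), with a limma F test adjusted p of 0.00278. Mesenchymal markers summed to 289 and 347 CPM (OKMS, OKS) at day 0, 638 and 707 at day 2, 187 and 627 at day 6 and 103 and 313 at day 20, and their part was not tested.

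In R10, Neat1 was also above its day 0 level on every later day. OKMS cells had 9.23 CPM at day 0, 307 at day 2, 280 at day 4, 163 at day 6, 681 at day 10 and 111 at day 18, and OKS cells 20.4, 536, 998 and 62.7 CPM at days 0, 2, 6 and 18. OKMS cells were highest at day 10 here and at day 2 in R9. Trophoblast markers (Hand1, Krt8 and Krt18 in the table) summed to 881 CPM at OKMS day 10 in R10. Hand1 was at 0 in all R9 FBS-LIF-dox libraries of OKMS and OKS cells from day 2 to day 10. The R9 sums of those days are thus Krt8 and Krt18 only. In R9 OKMS cells these summed to 457 CPM at day 10, where Neat1 was at 32.4 CPM. At day 2 they summed to 2.26 CPM there, where Neat1 was at 105 CPM. Their part was not tested. The largest difference from day 0 was 4.78 ± 0.70 at day 2 (limma F test adjusted p = 0.0248). The call was lost without day 2 (adjusted p = 0.0591) and with OKMS days 4 and 10 added (0.118), a setting in which no gene at all was called.

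Malat1 rose at first and fell at the end in R9. OKMS cells had 973 CPM at day 0, then 3363, 732, 1422, 1284, 471 and 172 at days 2, 4, 6, 10, 14 and 20. OKS cells had 865, then 5173, 7823, 5846, 9272, 2899 and 448 CPM. OKS cells thus stayed high to day 10, while OKMS cells were between 732 and 1422 CPM from day 4 to day 10, around their starting level. The differences from day 0 went from 2.18 ± 0.70 at day 2 to −1.72 ± 0.70 at day 20, and the F test passed (limma adjusted p = 0.0227). Without day 20 it did not (0.339). Each difference is a mean over OKMS and OKS cells, whose libraries of a day stood as its replicates. At day 4 that mean was 1.38, with OKMS cells below their day 0 level and OKS cells above theirs.

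In R10, OKMS cells had 3070, 11785, 3857, 1882, 9145 and 3738 CPM of Malat1 at days 0, 2, 4, 6, 10 and 18, and OKS cells 3635, 20513, 21062 and 2488 CPM at days 0, 2, 6 and 18. At day 6 the systems stood 11.2-fold apart. The time course was not called for Malat1 (limma F test adjusted p = 0.269, but 0.0348 without day 6).

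Tug1 was lowest at day 18 in R10. OKMS cells had 177, 147, 127, 87.4, 95.0 and 11.9 CPM at days 0, 2, 4, 6, 10 and 18, and OKS cells 165, 187, 186 and 20.5 CPM at days 0, 2, 6 and 18. OKMS cells were thus below day 0 on every later day, OKS cells held their level to day 6, and both day 18 libraries were below all the others. The day 18 libraries also belong, with the numbered stem cell libraries, to the set with the highest range of mitochondrial share (1.56 to 2.35%). That range overlaps the one of OKMS and OKS libraries before day 18 (0.729 to 1.64%). The stem cell library outside that set had 97.8 CPM of Tug1, and the part of the library set was not tested. The difference from day 0 was −0.05 at day 2, −0.42 at day 6 and −3.37 at day 18 (SE 0.38 each, limma F test adjusted p = 0.0174). It rested on day 18: without that day the adjusted p was 0.748. With days 4 and 10 added it was 0.107, where 0 of 20373 genes were called by limma (4756 at an unadjusted p under 0.05). R9 values of Tug1 were 4.22 to 31.2 CPM over the FBS-LIF-dox libraries, from 4 to 26 reads each, and were not called (limma F test adjusted p = 0.690).

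Miat was found in few reads. In R9, OKS cells had 1 read at day 2, 3 at days 6 and 10 each, 10 at day 14 (8.27 CPM) and 1 at day 20, and OKMS cells 1 read at day 2 and at day 14. In R10, OKS cells had 11 reads at day 2 (4.10 CPM) and 9 at day 6 (3.84 CPM), and OKMS cells 1, 3 and 2 reads at days 2, 6 and 10. No OKMS or OKS library in 2i-LIF held any in either chemistry. Neither time course was called for Miat (limma F test adjusted p of 0.333 in R9 and 0.0701 in R10). Thus 2 of 4 members were called in the R9 time course, beside 10.7% of genes tested, and 2 of 4 in R10, beside 9.04%.

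**Figure D2:**
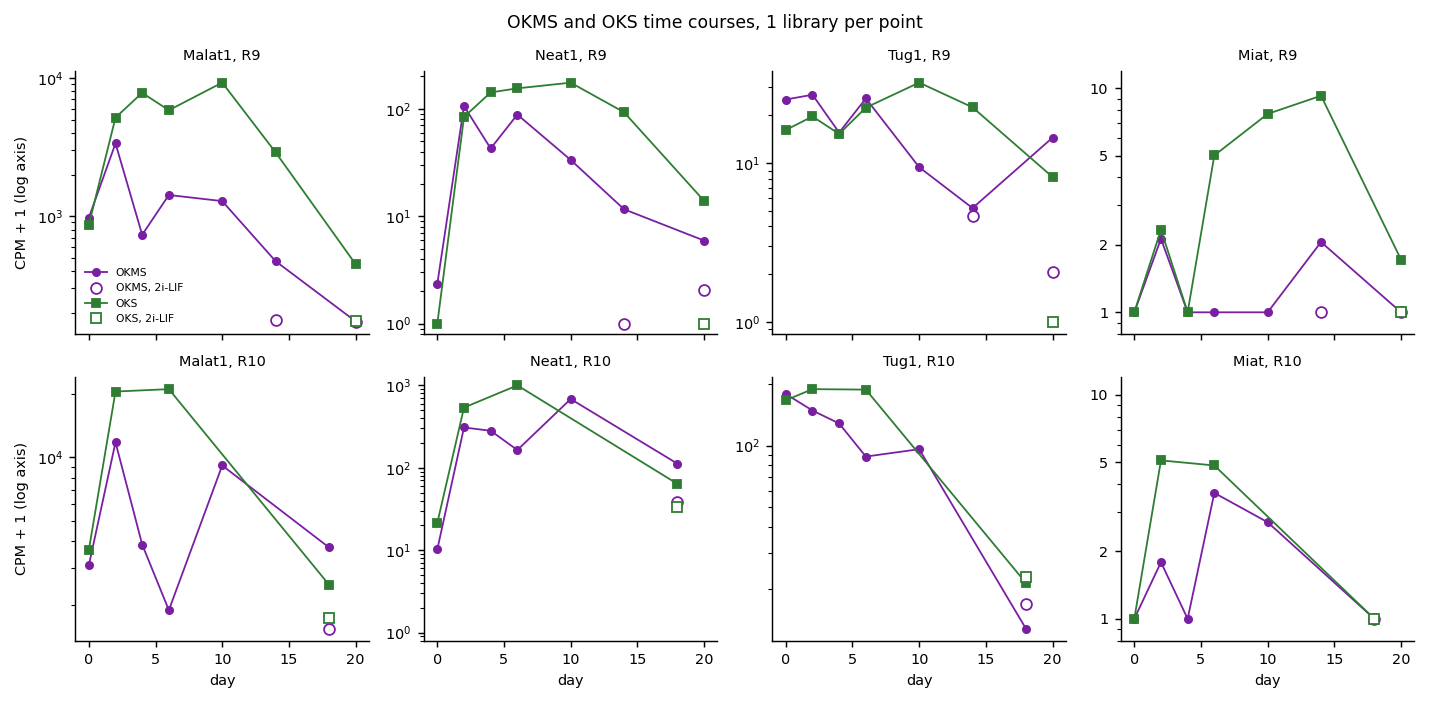
CPM + 1 (log axis) of each member by day in OKMS (circles) and OKS cells (squares), with open symbols for cells moved to 2i-LIF and 1 library per point. In R9 the OKS line of Malat1 stayed above the OKMS line from day 2 to day 20, and both lines of Tug1 dropped at day 18 in R10.

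The systems were then compared over days. In R9, Malat1 of OKS cells was 0.889 times that of OKMS cells at day 0, and 1.54, 10.7, 4.11, 7.22, 6.16 and 2.60 times at days 2, 4, 6, 10, 14 and 20. With day as a block, the difference of OKMS from OKS cells in Malat1 was −2.15 ± 0.31 (limma adjusted p = 9.57e-04). Neat1 was 0.789 times as high in OKS cells at day 2 and then 3.38, 1.76, 5.38, 8.70 and 2.63 times, and it was called too (−1.47 ± 0.34, limma adjusted p = 0.00782). Both calls held without any one day.

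Tug1 showed no such order, with OKS to OKMS ratios from 0.531 to 5.10 over days 2 to 20 (difference −0.40, limma adjusted p = 0.495). Miat's difference was −1.39 ± 0.50 (limma adjusted p = 0.0548). So 2 of 4 members were called in R9, beside 18% of genes tested. The astrocyte markers moved along: in OKMS cells of days 4 to 20 they summed to 3.69 to 13.6 CPM, and in OKS cells to 33.1 to 88.7 CPM at days 4 to 14 and 5.75 CPM at day 20. Stem cell markers reached 1261 CPM at day 6, 5113 at day 10, 9499 at day 14 and 9583 at day 20 in OKMS cells, and 150, 100, 769 and 8332 CPM in OKS cells. At days 2 and 4 they were at 98.3 and 89.7 CPM in OKMS and at 139 and 111 CPM in OKS cells. Mesenchymal markers were lower in OKMS cells on each day, from 638 against 707 CPM at day 2 to 103 against 313 CPM at day 20. The part of these markers in the member values was not tested.

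In R10 with its 3 days, 0 of the 4 members were called, beside 0% of 15134 genes tested by limma (2389 genes at an unadjusted p under 0.05; edgeR also called 0 and DESeq2 349). Malat1 was at −1.23 ± 0.76 (limma adjusted p = 0.443), with OKS to OKMS ratios of 1.74, 11.2 and 0.666 at days 2, 6 and 18. Neat1 ratios were 1.74, 6.14 and 0.564, and its difference went from −0.87 to 0.01 without day 6. Whether the systems differed more in R9 than in R10 was not tested.

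Late cells were compared between media. In R9, Neat1 was at 10.6 and 4.93 CPM in OKMS cells of days 14 and 20 and 12.9 CPM in OKS cells of day 20 in FBS-LIF-dox, and at 0, 1.07 and 0 CPM in the matching 2i-LIF cells. In reads this was 10, 4 and 18 against 0, 1 and 0. Each 2i-LIF library was lower than its partner, and Neat1 fell by 2.95 on the log2 scale (SE 0.65, limma adjusted p = 0.0128). Neat1 met the filter of the test (1 CPM in 3 libraries) only through the FBS-LIF-dox libraries, so it could only be called lower. The call was lost without the OKS pair (−2.52, limma adjusted p = 0.0926). Trophoblast markers (3 in the table) moved with Neat1: they summed to 369, 163 and 611 CPM in FBS-LIF-dox and to 23.2, 9.67 and 11.6 CPM in 2i-LIF, where Hand1 was at 0, and their part was not tested. Malat1 went from 471, 172 and 448 CPM to 176, 170 and 172 CPM (−0.94 ± 0.26, limma adjusted p = 0.0434), under the size needed, except without the OKMS day 20 pair (−1.39, 5.63e-04). Tug1 had 4 to 11 reads per FBS-LIF-dox library and 0 to 3 in 2i-LIF (−2.0 ± 0.68, limma adjusted p = 0.0955), and passed without the OKMS day 14 pair (−2.92, 0.0252). This was 1 of 3 tested members, beside 7.53% of genes tested.

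In R10 at day 18, Malat1 was at 3738 and 2488 CPM in FBS-LIF-dox against 1539 and 1724 in 2i-LIF, and Neat1 at 111 and 62.7 against 37.0 and 32.8 CPM. Both were lower in 2i-LIF in each pair, and neither was called (limma adjusted p of 0.219 and 0.147), beside 1.17% of genes tested. Neat1, at −1.24, was called by limma under a filter of 5 CPM (adjusted p = 0.0417) or median centring (0.0394) and by edgeR (−1.31, 0.0364), but not by DESeq2 (−1.29, 0.786). Trophoblast markers were at 261 and 224 CPM against 31.7 and 29.7 CPM, and their part was not tested. Tug1 was at 11.9 and 20.5 CPM against 15.9 and 21.9 CPM.

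Against R10 stem cells with an n number, late cells in FBS-LIF-dox were lower in Tug1, and Malat1 (0.71, limma adjusted p = 0.0439, under the size needed) and Neat1 (0.59, 0.293) were not called. The R1 library without n number (97.8 CPM of Tug1) was left out because earlier results of these data had set it apart. It was kept in the comparison with progenitors, and the present one was not run with it. The numbered stem cell libraries had 31.0 to 42.1 CPM of Tug1, and the 4 day 18 libraries 11.9 to 21.9 CPM, with 8 to 16 reads each. In FBS-LIF-dox, Tug1 fell by 1.11 (SE 0.22, limma adjusted p = 0.00398) below stem cells, beside 23.9% of genes called, and this was −0.74 without the OKMS library. In 2i-LIF the difference of −0.87 ± 0.19 (limma adjusted p = 0.0101) was under the size needed, beside 12.2% of genes called, and −1.09 without the OKS library. In R9 no member was called for late cells in either medium against the 2 stem cell libraries, beside 0.704% of genes tested for 2i-LIF and 1.13% for FBS-LIF-dox. At an unadjusted p under 0.05 in limma there was 1 member for 2i-LIF and 0 for FBS-LIF-dox. This was beside 1835 of 15478 genes tested for 2i-LIF and 2553 of 16312 for FBS-LIF-dox.

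The order of levels within R10 was, for Malat1, WT serum (13043 and 72937 CPM), days 2 to 10 (1882 to 21062), progenitors (1882 to 7992), day 18 in serum (2488 and 3738), stem cells and day 18 in 2i-LIF (1539 and 1724). Each group overlapped the next except day 18 in serum, whose lower library (2488 CPM) was just above the highest stem cell library (2437 CPM). For Neat1 the order was WT serum, days 2 to 10 (163 to 998 CPM), day 18 in serum, stem cells, day 18 in 2i-LIF and progenitors. WT serum overlapped days 2 to 10, and stem cells overlapped both day 18 groups, while days 2 to 10 stood clear of day 18 and 2i-LIF stood clear of the progenitors. For Tug1 the order was WT serum (188 and 217 CPM), progenitors (145 to 177), days 2 to 10 (87.4 to 187), stem cells, and day 18 in either medium (11.9 to 21.9). Progenitors overlapped days 2 to 10, stem cells overlapped days 2 to 10 only through the library without n number, and day 18 stood clear of the stem cells.

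The transcript table split Malat1 into 362 transcript models, Neat1 into 22, Tug1 into 14 and Miat into 2, in TPM (the authors' length-corrected transcript abundance). Malat1 was low in it beside the gene table. The TPM of all Malat1 models over its CPM was 0.105 in R10 and 0.271 in R9 (medians over libraries). For the median gene of a library, among genes at 10 CPM or more, this ratio was 0.580 and 0.607. The ratio sets a length-corrected unit against one that is not. For Neat1 it was 0.281 and 0.324, and for Tug1 1.04 and 0.862.

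Most of the TPM assigned to Malat1 models lay in pieces of its 5′ end. TPM weights short models up, and the models hold only part of the Malat1 reads, so these shares do not describe all Malat1 reads. Of its 362 models, 309 ended within 1500 bases of the gene's start, and they held 69.4 to 89.3% of its TPM in R10 libraries (median 81.0%) and 74.2 to 93.5% in R9 (median 89.1%). The 5 models at the annotated 3′ end held a median of 2.72% in R10 and 1.62% in R9. Of all models, 340 had more than 1 exon, and all of these had canonical splice sites in the authors' classification, although the full-length annotated transcript is a single exon.

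The leading spliced Malat1 model, 481 bases long, joined bases 2 to 30 of the annotated transcript to bases 290 to 741 and left out 259 bases. The windows around its splice sites are printed with the GT and AG of the intron in capitals (chr19:5802618-5802667 and chr19:5802359-5802408 on GRCm38, minus strand). The longest run found in both windows was cagagcag, 8 bases, next to each splice site. The authors' classification marked none of the 340 spliced models as template switching, an artefact of reverse transcription at such repeats. These models come from an annotation that is labelled as filtered. Whether the filter had removed flagged models or non-canonical splice sites is not given in the sources used here. The lack of flags and the canonical sites may thus have been fixed beforehand, and whether this model is an artefact was not tested.
Malat1 model 5′ splice site: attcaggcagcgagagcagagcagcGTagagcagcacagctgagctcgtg
Malat1 model 3′ splice site: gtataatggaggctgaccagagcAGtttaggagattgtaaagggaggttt

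This model was lower in stem cells in both chemistries. It held 11.7 to 24.2% of Malat1 TPM in R10 progenitors and 0 to 4.56% in stem cells, with the highest of these in the library without n number, and 0 in all 4 day 18 libraries. Its level fell by 4.70 on the log2(TPM + 1) scale in R10 (SE 0.57, limma adjusted p = 2.04e-05) and by 3.04 in R9 (SE 0.28, limma adjusted p = 0.00186). Its share of Malat1 fell by 16.37 percentage points in R10 (limma adjusted p = 4.33e-04), and the R9 share did not pass (−3.19 points, limma adjusted p = 0.116). In R9 it held 2.58 to 4.30% in progenitors and 0% in both stem cell libraries. At days 14 and 20 in FBS-LIF-dox it reached 6.75% in 1 library and 12.8 TPM in another. It held up to 19.0% in a late 2i-LIF library with 28.4 TPM of Malat1 in all. Another piece, a 164-base model of 1 exon, gained share in R10 stem cells (12.53 points, limma adjusted p = 0.0229), while its level was at −0.54 ± 0.35 (0.227).

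A Malat1 model of 1234 bases ended at base 6686, the base after the A run printed above. It was at 231 and 55.9 TPM in the R10 WT serum libraries and at 11.7 TPM in the R9 one, and at 0 in every progenitor and stem cell library of both chemistries. Of the OKMS and OKS libraries of days 2 to 10, those of OKMS day 2 held it (35.8 TPM in R10 and 6.54 TPM in R9) and the others were at 0. The R10 day 18 libraries held 7.82 and 25.6 TPM in FBS-LIF-dox and 7.88 and 13.8 TPM in 2i-LIF, and all R9 libraries of days 14 and 20 were at 0 in either medium. A second model ends at the A run. The pair together was above 0 in progenitors (up to 0.903 TPM in R10 and 1.52 in R9), in R10 stem cells (up to 0.467 TPM) and in late R9 libraries (up to 1.90 TPM in FBS-LIF-dox and 0.913 in 2i-LIF).

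Neat1 models ended in different places in the chemistries. In the 10 R9 libraries with at least 5 TPM of Neat1, models ending within 30 bases of the short isoform's end held 51.6 to 100% of its TPM (median 88.2%). In the 20 such R10 libraries they held 0 to 58.9% (median 13.6%). Models lying wholly past that end, a stretch that only the long isoform covers in the annotation, held 0 to 39.2% in R9 (median 3.25%) and 19.0 to 92.5% in R10 (median 60.8%). These sets differ in cell state, since no R9 stem cell library and 7 R10 ones are in them. Among FBS-LIF-dox libraries of days 2 to 10 alone, the medians were 90.7% (R9, 8 libraries) and 22.9% (R10, 6 libraries) at the short end, and 2.79% and 55.5% past it. The full-length model of 20771 bases reached 63.9 TPM in R10 and 0.494 TPM in R9. The chemistries differ in both poly(A) enrichment and PCR, which cannot be told apart here.

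Of these past-the-end models, those of 3120 and 882 bases rose in R10 stem cells over progenitors, by 1.85 ± 0.59 (limma adjusted p = 0.0189) and 1.63 ± 0.44 (0.00740). Only 1 of 4 R10 progenitor libraries reached 5 TPM of Neat1, so shares in progenitors rest on few reads.

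Of the Tug1 models 2 fell in R10 stem cells, a 2612-base one (−1.44 ± 0.26, limma adjusted p = 5.44e-04) and, by more, the leading one. The leading 1393-base model with 2 exons held 84.9 to 93.6% of Tug1 TPM in R10 progenitors, 79.2 to 94.8% over the 12 progenitor, day 2 to 10 and WT serum libraries, and 93.9% in the stem cell library without n number. It held 4.26 to 24.5% in the 6 other stem cell libraries and 16.4 to 42.3% in the 4 day 18 libraries. In TPM it stood at 158 to 189 in progenitors, 0.629 to 4.83 in the 6 stem cell libraries and 106 in the library without n number.

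Over all 7 R10 stem cell libraries the level of this Tug1 model fell by 5.05 on the log2(TPM + 1) scale (SE 0.86, limma adjusted p = 3.48e-04) and its share changed by −63.56 points (0.00937). All other Tug1 models together were at 11 to 28.0 TPM in progenitors and 11.7 to 16.0 TPM in the 6 stem cell libraries, which overlap. The 5120-base model that ends at the annotated 3′ end was at −0.22 (limma adjusted p = 0.677). In R9 progenitors the 1393-base model held 14.4 to 61.6% of Tug1 TPM, below every R10 progenitor library, and its stem cell difference was −1.89 ± 0.84 (limma adjusted p = 0.337). The R1 library without n number has the cell line, genotype and treatment labels of the other R1 libraries, but its title is built differently, and it lay with the progenitors and early days in this share. Progenitor, neuron and mesenchymal markers summed to 44.1, 134 and 329 CPM in it. In the 6 other R10 stem cell libraries they summed to 5.97 to 11.2, 38.4 to 76.3 and 180 to 272 CPM. Its astrocyte and trophoblast sums lay among theirs, and its stem cell sum (13878 CPM) was the highest of R10 stem cells. What sets this library apart was not tested.

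**Figure D3:**
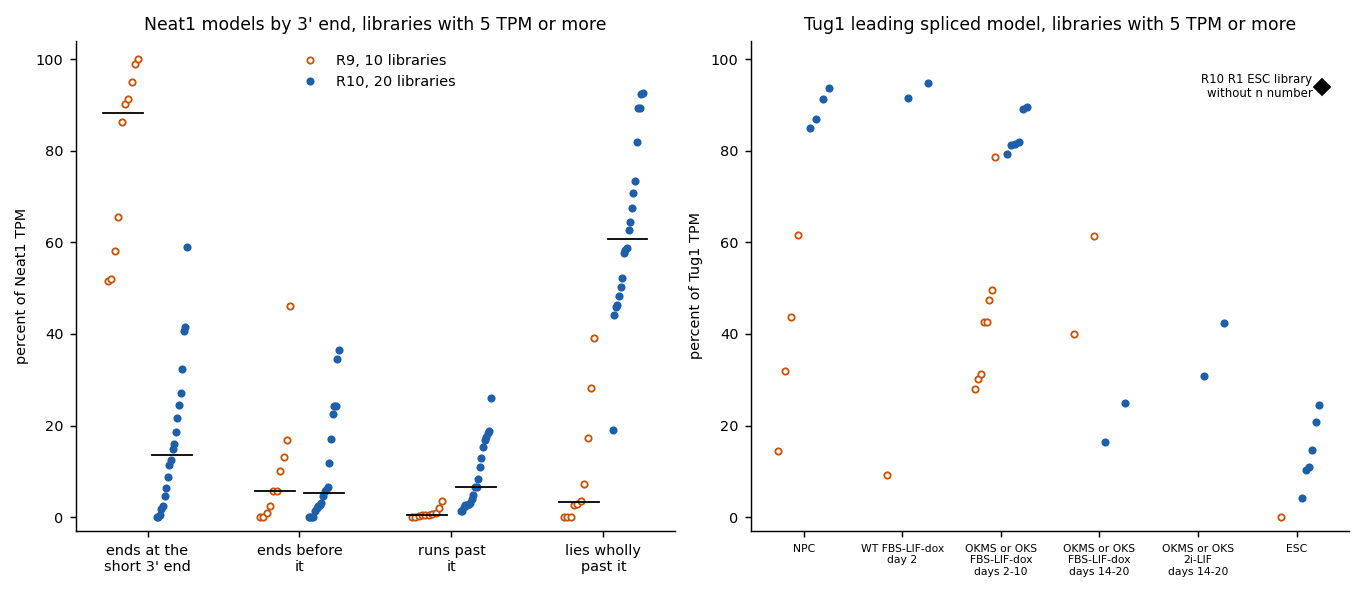
Left, percent of Neat1 TPM in models grouped by where they end relative to the short isoform's 3′ end, in libraries with 5 TPM or more (bars are medians). Right, percent of Tug1 TPM in the 1393-base model by cell state, where the R10 stem cell library without n number (diamond, 93.9%) lay apart from the 6 other R10 stem cell libraries (4.26 to 24.5%).

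In R10, 15 of 50 member models tested were called between stem cells and progenitors, 2 higher and 13 lower (11 of Malat1, 2 of Neat1, 2 of Tug1), beside 39.8% of all 58952 transcripts tested (23.4% higher, 16.4% lower). By share within the gene 6 of 50 were called, 4 higher and 2 lower, beside 12.2% (6.63% higher, 5.56% lower). In R9, 2 of 47 were called by level, beside 13.4%, and 0 of 47 by share, beside 2.00% of transcripts tested. By share 3 of the 47 had an unadjusted p under 0.05 in limma, which was not counted over all transcripts. No count tool was run on shares.

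Over the 12 conditions measured in both chemistries, R10 gave higher CPM for 3 members. Malat1 was 1.32 to 13.7 times higher in R10 (median 4.29), Neat1 1.86 to 21.1 times (median 6.47, over the 9 conditions with an R9 read) and Tug1 3.29 to 12.1 times (median 8.37). With the condition as a block, Malat1 was higher by 2.17 ± 0.18, Neat1 by 3.00 ± 0.31 and Tug1 by 2.80 ± 0.15 (limma adjusted p of 3.03e-09, 1.09e-07 and 5.20e-12). All 3 tested members were called, beside 12.0% of genes tested. The most even ratio of Malat1 was at OKMS day 6, with 1882 CPM in R10 and 1422 CPM in R9.

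**Figure D4:**
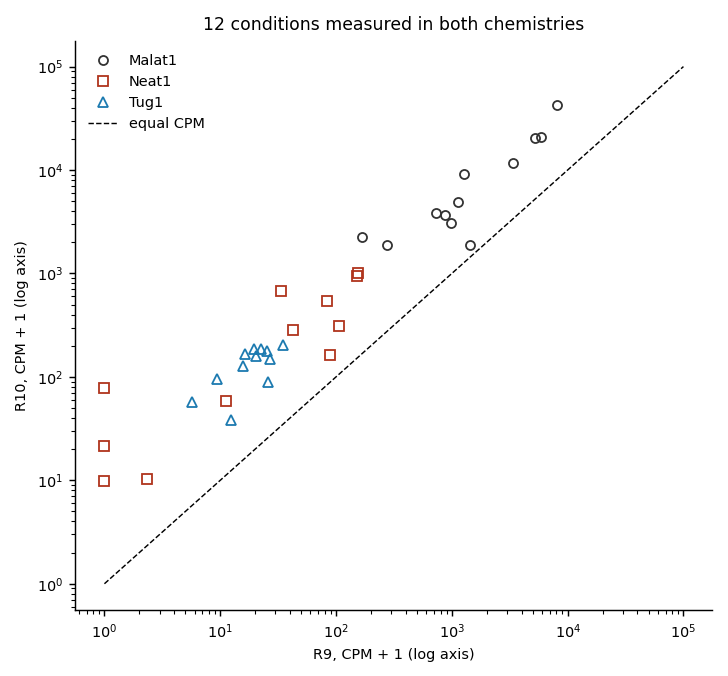
CPM + 1 in R10 against R9 (log axes) for Malat1, Neat1 and Tug1, 1 point per condition measured in both chemistries (mean of the libraries where there are several). All points lay above the dashed line of equal CPM.

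Proteins that work with these RNAs were counted by list, to be read against the shares of all genes called: 22.4% higher and 23.4% lower in R10 stem cells, 17.6% and 18.4% in R9, and 14.9% and 11.9% in WT serum. Of 17 paraspeckle proteins, 0 were called between stem cells and progenitors in R10 by limma, with a median difference of 0.09 beside 0.01 for all genes tested. In R9 only Pspc1 rose (1.41 ± 0.22, limma adjusted p = 0.00293). In WT serum 4 of the 17 fell, beside 11.9% of all genes: Hnrnpa1 (−2.04), Sfpq (−1.44), Rbm14 (−1.13) and Hnrnph1 (−1.09), with a median of −0.85 beside 0.12. Sfpq, which Neat1 binds directly, was at 76.6 and 81.0 CPM in the R10 WT progenitor libraries and at 22.4 and 36.0 CPM in serum (limma adjusted p = 0.0196), and Hnrnpa1 at 553 and 892 CPM and at 158 and 184 CPM (0.00730).

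Of 18 speckle and splicing proteins, 1 rose (Srrm1, 1.17) and 2 fell (Son, −1.30, the speckle scaffold, and Srrm2, −1.14) in R10 stem cells, beside 22.4% and 23.4% of all genes. In WT serum 2 of the 18 rose, the kinases Clk1 (1.71) and Clk4 (1.49), which release splicing factors from speckles, and 2 fell, Srsf3 (−1.92) and Rnps1 (−1.60), beside 14.9% and 11.9% of all genes. Of 10 PRC2 genes, 6 rose in R10 stem cells, beside 22.4% of all genes: Mtf2 (3.97), Eed (2.10), Jarid2 (1.94), Ezh1 (1.68), Suz12 (1.53) and Aebp2 (1.10), and Phf19 fell (−2.12), with a median of 1.32 beside 0.01. In R9 5 rose and none fell. Of 3 Miat-binding proteins in the table, Qk, an RNA-binding protein of glia, fell in stem cells in R10 (−1.46) and R9 (−1.44). Among 5 other nuclear lncRNAs in the table, Meg3, an imprinted RNA, rose in stem cells (6.44 in R10, 7.04 in R9) and Jpx, an activator of Xist, fell (−2.14 and −2.37).

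Some neighbouring genes overlap the members. Gm37376, a gene model on the opposite strand across Malat1 and Neat1, followed Malat1 most closely of 9706 genes ranked (Pearson r of 0.97 over 22 R9 and 0.98 over 23 R10 libraries, given as a description). It was at 99.2 and 581 CPM in R10 WT serum and 14.6 to 62.6 CPM in progenitors. Whether counting used strand is not given in the sources used here, so its reads and those of Malat1 cannot be told apart. Next were Mprip, a myosin phosphatase partner (0.97 and 0.94), and Atp1b2, a glial subunit of the sodium pump (0.93 and 0.93). For Neat1 the closest were Sbno2 (0.90 and 0.92), Inpp5k (0.89 and 0.93) and Inf2 (0.89 and 0.90), for Tug1 Gbf1 (0.86 and 0.89), Tcf7l2 and Echdc1, and for Miat Inpp5k (0.70 and 0.73), Glo1 and Hbegf. The libraries behind these values share cell states and differ in depth.

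Miat (chr5:112213228-112229395) overlaps Gm27998, a short RNA model on the same strand at its 3′ part, which could take Miat reads. Gm27998 was at 75.9 and 12.5 CPM in the R10 WT serum libraries, 0 to 0.439 CPM in R10 progenitors and 0 to 0.236 CPM in R10 stem cells, and it rose in serum by 4.81 ± 0.84 (limma adjusted p = 0.0127). In R9 it reached 44.6 CPM in a reprogramming library, above the highest Miat value of 8.27 CPM, and was at 7.07 CPM in the serum library where Miat had no read. Within 50000 bases of the members as deposited, 24 genes were in the table and 13 were tested between R10 stem cells and progenitors. Of these 5 fell, led by Ltbp3, a binding protein of latent TGF-beta (−4.76), and 1 rose (Tpst2, 1.27), a share of called genes near the 45.8% of all genes in that comparison. Ltbp3, on the other strand near Malat1, was at 24.5 to 36.9 CPM in R10 progenitors, 135 and 146 CPM in WT serum and 0 to 0.373 CPM in stem cells.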

How the data were processed

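Levels came from 45 libraries, 22 R9 and 23 R10. The authors aligned reads with minimap2 2.24-r1122 to mm10, per the submitters' processing notes. The authors deposited CPM for 23575 genes and TPM for 276608 transcripts, with a classification of each transcript that includes the percent of A bases after its end; whether counting used strand is not given in the sources used here. Of the CPM values 100% were whole multiples of 1 read in their library (tolerance 0.02), so whole reads were recovered for edgeR 4.0.16 and DESeq2 1.42.0, used as alternatives. A further 13 columns of the gene table match no sample and were not used.

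Groups were compared within a chemistry with limma 3.58.1 (R 4.3.3) on log2(CPM + 1), on genes with at least 1 CPM in as many libraries as the smaller group has. A call needed a Benjamini-Hochberg adjusted p under 0.05 over all genes tested and a log2 difference of 1 or more. This scale understates changes of low genes. Time courses used limma's moderated F test over days, with system as an additive term. Each difference from day 0 is thus a mean over OKMS and OKS cells. System, media and chemistry comparisons had day, pair or condition as a block. Transcripts were tested on log2(TPM + 1), and shares of a gene's TPM on the arcsine square root scale with a size of 10 points. Tests were two-sided. Floors are 3 reads of a total and cover counting error only. Genes named beside the members are the called ones of each list, and the 3 genes of highest Pearson r in both chemistries among genes with a median of 5 CPM. Alternatives were pseudocount 0.25, filter 5, other scalings and tools, and each library or day left out. Scripts were tested on simulated data. The members and gene lists were chosen with earlier results of these data known.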

Additional observations from a re-analysis of the deposited data

Results flagged for a closer look

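In 3 of 10 groups tested a single library stood apart from the rest by Dixon's criterion, which chance meets in about 1 in 20 groups of continuous values. In 2 of the 3 it was a single read among zeros, where any read meets the criterion and that rate does not apply. Neat1 was at 1.35 CPM in the OKMS library of the R9 progenitors and at 0 in the other 3, a difference of 1 read. Tug1 was at 97.8 CPM in the R10 stem cell library without n number, against 31.0 to 42.1 CPM in the other 6. The same library held 0.373 CPM of Miat, which is 1 read, against 0 in the other 6.

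A joined gene entry of Malat1 and Neat1, which entered no comparison of the members themselves, held reads above the progenitor level. In R9 it was above 0 in 10 of 22 libraries, at 0 in the progenitors, and highest in OKS cells of day 10 at 13.4 CPM. In R10 it was above 0 in 11 of 23 libraries, reached 2.22 CPM in progenitors, and was highest in WT serum replicate 2 at 11.4 CPM.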

How the results depend on the processing

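Of 235 other settings for a count of members called, 205 stayed within 1.5 times it, as did all 15 with Malat1 reads left out of the totals, which were added after seeing the data. The cause of each change below was not tested. Members called went to 0 for R10 stem cells against progenitors with only the unnumbered R1 library (shares of models also 0), for the R10 time course with days 4 and 10 (where no gene of the table was called), and for 2i-LIF in R9 under a filter of 5 CPM, quantile scaling or DESeq2. In those 2i-LIF settings of R9 the share of all genes called went from 7.53% to 9.33, 3.40 and 3.68%. Members called went from 0 to 1 for factors against WT under median centring, edgeR and DESeq2. The share of all genes called went there from 0.740% to 2.59, 2.17 and 3.01%. Members called also went from 0 to 1 for 2i-LIF in R10 under a filter of 5 CPM, median centring and edgeR. There the share of all genes called went from 1.17% to 7.74, 5.35 and 5.25%. A filter of 5 TPM left 5 called R10 models. Leaving out 1 library or day gave 2 to 3 members for stem cells against progenitors in R10 and 1 to 2 in R9. For WT serum it gave 0 to 1 (no gene of the table in 3 of the 4 fits). The R9 and R10 time courses had 1 to 2 and 1 to 3, and 2i-LIF in R9 had 0 to 2. R10 late 2i-LIF and FBS-LIF-dox against stem cells had 0 to 1 and 0 to 2. Models called by level were 12 to 20 in R10 and 2 to 13 in R9, and by share 5 to 7 in R10 and 0 to 2 in R9. A lone library left in a group is assumed to vary like the others, and the R10 media comparison could not be fitted with 1 pair.

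Leaving out 1 library or day also changed signs. The ranges were −0.31 to 3.18 for Neat1 in R9 stem cells, −2.23 to 0.25 for Malat1 and −2.07 to 1.11 for Neat1 with the factors at day 2, −1.71 to 0.01 for Neat1 between systems in R10, −0.65 to 0.07 for Malat1 and −3.14 to 0.35 for Neat1 in late R9 2i-LIF cells against stem cells, and −0.18 to 0.94 for Tug1 in late R9 FBS-LIF-dox cells. The largest Malat1 difference of the R9 time course was −1.94 with edgeR.

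WT libraries in serum and progenitor medium share replicate numbers only. With the replicate block 3 members were called: Malat1 (2.99, limma adjusted p = 3.66e-06), Neat1 (6.05, 4.86e-12) and Miat (4.44, 1.95e-06), but not Tug1 (0.0994). This stood beside 38.1% of all genes tested, against 26.8% without the block. With 2 pairs the block leaves few residual degrees of freedom, so these p-values lean on the variance that limma pools over genes. Deviations of same-numbered libraries correlated at 0.47 over 14687 genes, with 2 pairs.

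Depth limits Miat (20 reads in all R9 libraries, 188 in R10), R9 Neat1 outside serum, and Tug1 at day 18.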
